A study of Mus musculus with 7 samples.

Results

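The 8 genes described here are caspases and proteins that act directly on them: Casp1, Casp4, Casp6, Casp8, Casp9, Apaf1, Cflar and Fas. They were read by 16 probe sets, those annotated to exactly 1 of these symbols, of 45037 probe sets tested on the array. Casp1, Casp4, Casp8 and Fas have 1 probe set each, Casp6 and Apaf1 have 2, Casp9 has 3 and Cflar has 5. The arrays measured RNA of the wound edge at day 5 in C57BL/6 mice, with 3 MFG-E8 WT animals (numbers 2, 3 and 4) and 4 MFG-E8 KO animals (numbers 8, 10, 11 and 12). MFG-E8 is a secreted protein that bridges dying cells to phagocytes, and the series asks which genes differ when it is missing. Each animal had its own array. The labels give no age, no sex and no account of how the KO allele was made, and all animals are wounded, so neither unwounded skin nor other days were compared.

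Caspases are cysteine proteases made as inactive precursors. Casp1 and Casp4 belong to the inflammatory branch, in which inflammasomes or bacterial lipopolysaccharide activate them and they open membranes through gasdermin D. Casp8 and Casp9 start apoptosis: Casp8 is activated at death receptors such as Fas and restrained there by Cflar (c-FLIP), and Casp9 is activated on the Apaf1 apoptosome once cytochrome c leaves mitochondria. Casp6 is an effector caspase that cuts nuclear lamins. At a wound edge, inflammatory cells and dying neutrophils bring these pathways together with keratinocytes and fibroblasts.

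All values are log2 values that the submitters centred per probe set. A value of 0 is thus their baseline, which is not stated, and not a level, and values cannot be ranked between genes. Differences are KO minus WT with their standard error (SE) from limma, and adjusted p-values are Benjamini-Hochberg values over all 45037 probe sets with a threshold of 0.05. The animals of a group are separate mice per the labels. In whole tissue, fewer cells of a type and less RNA per cell cannot be told apart. A coarse level recovered from the rounding of the stored values put 5 of the 16 probe sets at 8 or above on the log2 scale in these arrays and the other 11 between 4 and 8. The same reading, by the highest probe set of each gene, put all 9 measured keratinocyte markers at 8 or above. Markers of epidermis were thus present at the labelled wound edge. So were 10 of 10 skeletal muscle markers, 9 of 10 fibroblast markers, 8 of 10 monocyte and macrophage markers and 7 of 8 neutrophil markers. Fewer reached 8 in the endothelial (5 of 10), hair follicle (1 of 10) and T and NK cell (0 of 8) lists. Mfge8 itself, on chromosome 7, was lower in every KO animal than in every WT animal (log2 -1.90, SE 0.16, adjusted p = 0.00875). None of the 8 genes lies on that chromosome.

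Of the 16 probe sets, 0 passed the adjusted threshold, against 0.0444% of all probe sets in either direction and 0.0355% lower in KO. With limma's unadjusted p under 0.05 the count was 1, Casp4, against 7.39% of all probe sets in either direction and 5.22% lower in KO. The group means were lower in KO for 11 of the 16, against 46.8% of all probe sets. An absolute difference of at least log2 0.5 was found for 1 of the 16, again Casp4, against 5.49% of all. The median difference over the 16 was log2 -0.14 against log2 0.01 over all probe sets. Every KO animal was below every WT animal in 2 of the 16, which is 12.5%, against 4.54% of all probe sets. The reverse order was found in 0 of the 16, against 3.23%. The 95% confidence intervals excluded a doubling for all 16 probe sets and a fall to 0.5-fold for 15, Casp4 being the exception.

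**Figure D1:**
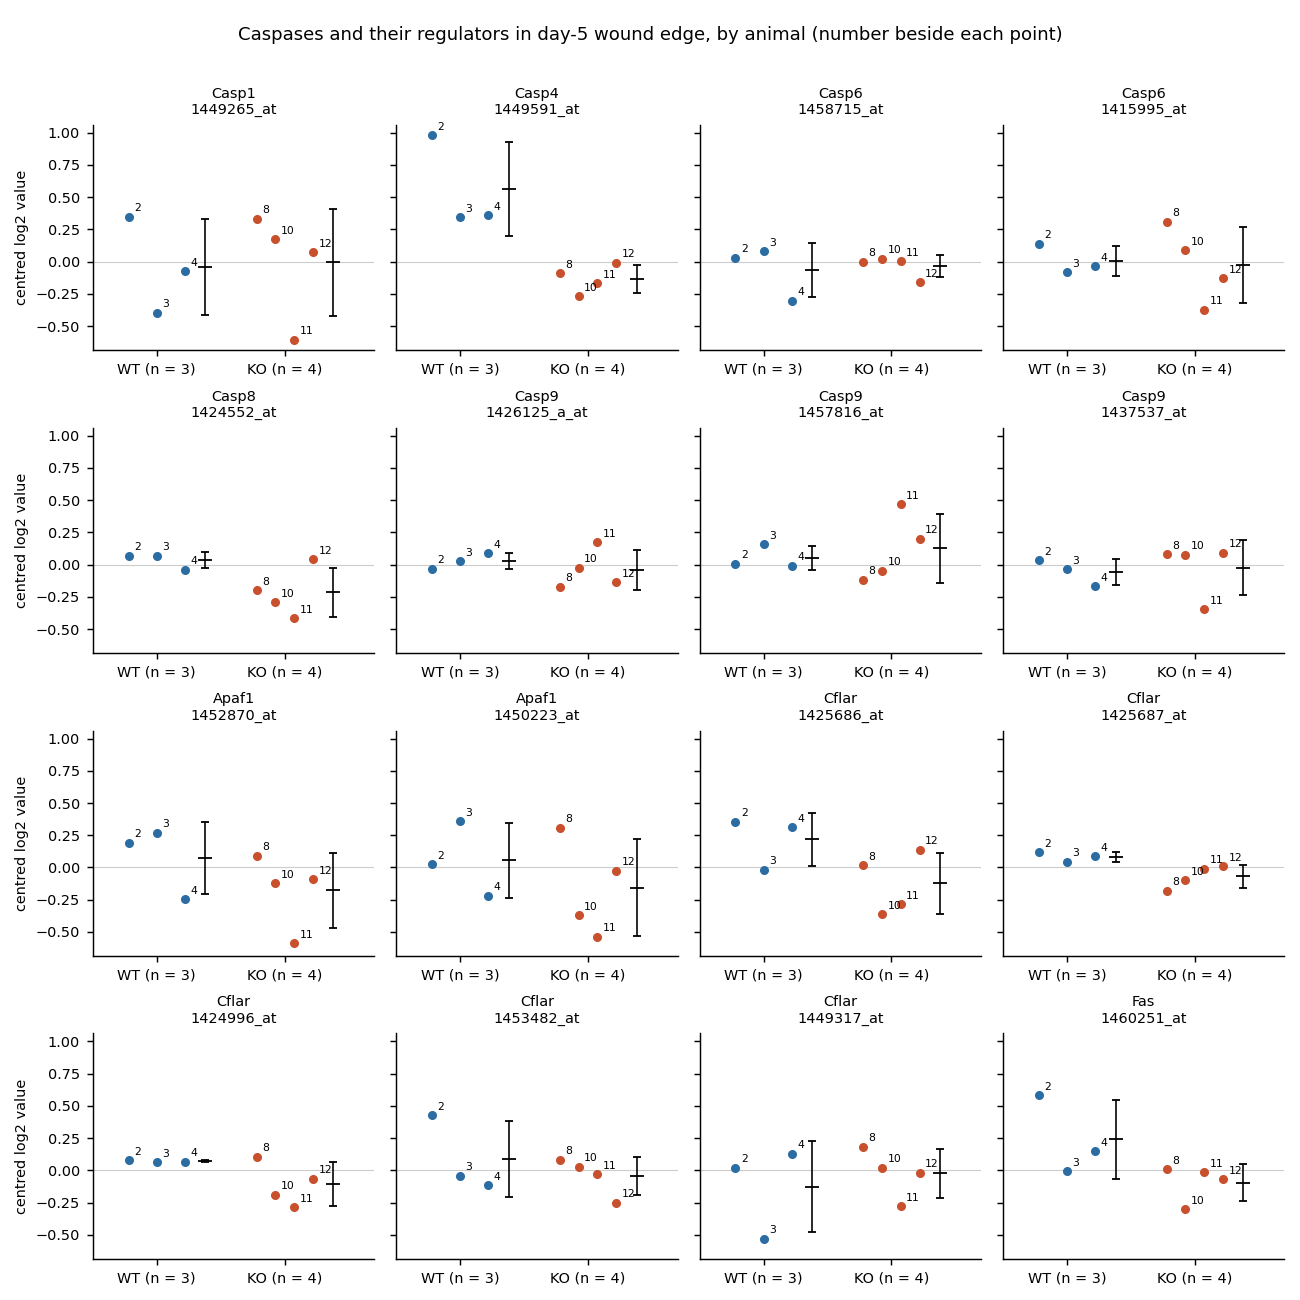
Centred log2 value of each of the 16 probe sets (vertical axis, 0 is the submitters' baseline) in 3 WT and 4 KO animals, numbered beside the points, with the group mean and SD in black. Casp4 and the Cflar probe set 1425687_at are the 2 panels in which all KO animals lie below all WT animals.

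The largest difference belonged to Casp4, the mouse gene for caspase-11, which senses cytosolic lipopolysaccharide. Its probe set (1449591_at, Entrez gene 12363, chromosome 9) read 0.98, 0.34 and 0.36 in WT animals 2, 3 and 4, and -0.09, -0.27, -0.17 and -0.01 in KO animals 8, 10, 11 and 12. All KO animals were thus below all WT animals, and WT animal 2 stood above the rest. The means were 0.56 ± 0.36 (SD, n = 3) and -0.13 ± 0.11 (SD, n = 4). The difference was log2 -0.70 (SE 0.17, 95% confidence interval -1.09 to -0.31), or 1.62-fold lower in KO. It did not pass the threshold (limma adjusted p = 0.388, unadjusted p = 0.0031). In the exact two-sided permutation test 1 of the 35 splits of the arrays, the real one, had an absolute difference as large, and the doubled one-sided p = 0.0571 was the smallest this design allows.

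The Casp4 difference held its sign in all 20 alternative fits and settings, with adjusted p from 0.125 to 0.99968. Some of these cannot change the estimate: the eBayes options, other thresholds, probe set filters and the gene mean of a single probe set. Among the others it ran from log2 -0.83 with array weights to log2 -0.49 without WT animal 2. No other library changed it by as much. It was log2 -0.65 without KO animals 8 and 10, whose hair follicle marker means (3.54 and 3.64) stand above those of the other animals (-2.27 to 0.67), and log2 -0.57 (SE 0.23) with the macrophage marker mean as a covariate.

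Casp1, the caspase that matures interleukin-1β, lies next to Casp4 and showed no such separation. Its probe set (1449265_at, Entrez gene 12362) read 0.35, -0.39 and -0.07 in WT animals 2, 3 and 4, and 0.33, 0.18, -0.61 and 0.07 in KO animals 8, 10, 11 and 12. The groups overlapped over nearly their whole ranges, and both spread widely (SD 0.37 in WT and 0.41 in KO). The difference was log2 0.04 (SE 0.25, 95% confidence interval -0.54 to 0.61, adjusted p = 0.985), and the estimate for Casp4 lies below that interval. The contrast between the genotype differences of these neighbours was not itself tested.

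In the gene order of the RefSeq table (GRCm38.p6), Casp1, Casp4 and Casp12 follow each other on chromosome 9 with no other protein-coding gene between them. Casp12, a caspase of the same branch tied to endoplasmic reticulum stress, was not among the 8 genes but was read by 2 probe sets. The probe set 1449297_at read 0.41, 0.13 and 0.14 in WT animals and -0.16, -0.56, -0.45 and -0.13 in KO animals 8, 10, 11 and 12. Its difference was log2 -0.55 (SE 0.15, adjusted p = 0.428). The other probe set, 1418981_at, gave log2 -0.47 (SE 0.14, adjusted p = 0.484), and in both every KO animal was below every WT animal. The genes on either side of the trio differed less than Casp4 and Casp12, though some by more than Casp1. Gria4, before Casp1, lay between log2 -0.01 and 0.12 over 3 probe sets, and Pdgfd, after Casp12, lay between log2 -0.27 and 0.14 over 3 probe sets.

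The stretches before the starts of these 3 neighbours are shown because Casp4 and Casp12 had the group order KO below WT and Casp1 did not. Each is the 250 bases before the RefSeq start (GRCm38.p6, plus strand), at chr9:5308599-5308848 for Casp4, chr9:5345226-5345475 for Casp12 and chr9:5298267-5298516 for Casp1. Capitals mark matches to the motifs listed after the sequences.
Casp4: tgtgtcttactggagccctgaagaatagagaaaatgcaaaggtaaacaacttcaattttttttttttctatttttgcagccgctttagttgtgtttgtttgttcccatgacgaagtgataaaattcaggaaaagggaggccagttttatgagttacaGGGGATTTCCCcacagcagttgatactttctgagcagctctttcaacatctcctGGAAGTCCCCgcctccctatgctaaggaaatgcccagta
Casp12: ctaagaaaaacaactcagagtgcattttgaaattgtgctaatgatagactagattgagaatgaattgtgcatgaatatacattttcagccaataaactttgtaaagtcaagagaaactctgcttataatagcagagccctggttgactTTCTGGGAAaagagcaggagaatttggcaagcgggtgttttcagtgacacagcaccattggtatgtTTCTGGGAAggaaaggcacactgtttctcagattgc
Casp1: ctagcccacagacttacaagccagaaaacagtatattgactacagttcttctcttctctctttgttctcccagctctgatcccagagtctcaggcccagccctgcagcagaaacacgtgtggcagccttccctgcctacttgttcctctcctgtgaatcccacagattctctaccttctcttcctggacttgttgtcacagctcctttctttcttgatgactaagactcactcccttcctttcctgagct
RefSeq lists 2 starts for Casp4, 11 bases apart, and the more upstream one is shown. The motifs searched on both strands were the NF-kB consensus, AP-1 (TGANTCA), the interferon-gamma activated site or GAS (TTCNNNGAA) and the interferon-stimulated response element core, plus the TATA box. The capitals in Casp4 are 3 NF-kB matches, which begin 93, 92 and 39 bases before the start, the first 2 overlapping. Those in Casp12 are 2 GAS matches, at 102 and 36 bases before the start. Casp1 held no match to these letters. Among all 27025 promoters of the same length, 7.01% held an NF-kB match and 7.18% a GAS match. All 8 genes had an entry. An NF-kB match was found in 1 of them (Casp4), AP-1 and GAS in Fas, and the TATA box in Cflar, as 2 matches to TATAAA on opposite strands that overlap. Of all promoters 13.0% hold that box, 6.87% an AP-1 match and 3.04% the interferon-stimulated core, which none of the 8 had. The matches are letters in a window, not shown sites.

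**Figure D2:**
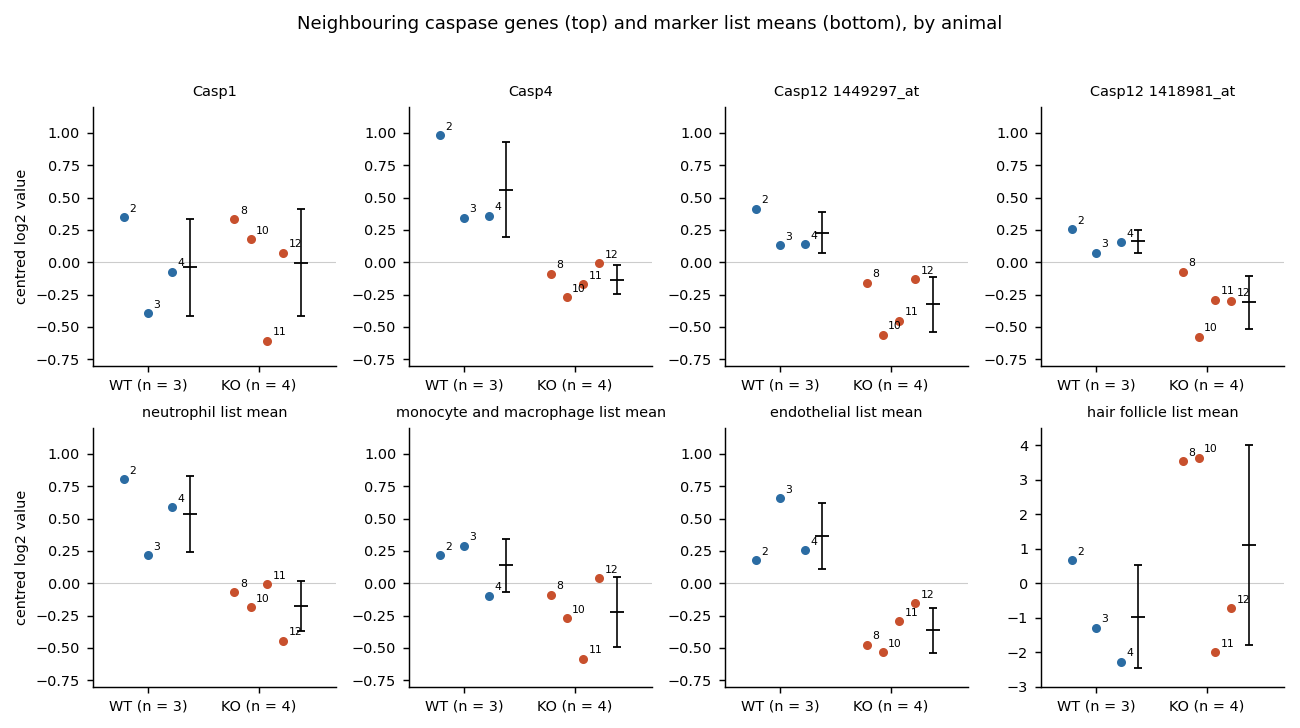
Centred log2 values by animal for Casp1, Casp4 and both Casp12 probe sets (top) and for the means of 4 marker lists (bottom; the hair follicle panel has its own wider axis), with animal numbers beside the points and group mean and SD in black. Casp4, Casp12 and the neutrophil and endothelial lists separate the genotypes, while Casp1 and the macrophage list do not. KO animals 8 and 10 lie at 3.54 and 3.64 in the hair follicle list.

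Several marker lists, not only those of inflammatory and vascular cells, were lower by group mean in KO, as Casp4 was. Of all 18193 genes, 48.4% were lower in KO by gene mean, and the lists were chosen with earlier results of these data known. The neutrophil list mean, over 8 of 10 genes measured, was between 0.22 and 0.80 in WT and between -0.44 and -0.01 in KO, and all 8 were lower in KO. The endothelial mean was between 0.18 and 0.66 in WT and between -0.53 and -0.15 in KO, with all 10 markers lower. The monocyte and macrophage mean overlapped, between -0.09 and 0.29 in WT and between -0.58 and 0.04 in KO, although all 10 were lower by group mean. The fibroblast mean was between -0.0874 and 0.47 in WT and between -0.49 and -0.0922 in KO, narrowly without overlap and with all 10 lower. The skeletal muscle list differed by log2 -0.59 with overlap, and all 10 of its markers were lower. The hair follicle list had the largest difference of the marker lists and the opposite sign, log2 2.08 with overlap and 0 of 10 lower. The T and NK cell list overlapped too (log2 -0.22, 6 of 8 measured markers lower), as did the keratinocyte list (log2 0.05, 5 of 9 lower). By the recovered bands 0 of the measured markers in these lists had a level under 4, and their part in the caspase differences was not tested beyond the covariate fits given here.

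Casp8, the initiator caspase of death receptors, was read by 1424552_at (Entrez gene 12370, chromosome 1). It read 0.07, 0.07 and -0.04 in WT animals 2, 3 and 4, and -0.20, -0.29, -0.42 and 0.04 in KO animals 8, 10, 11 and 12. Of the KO animals 3 were below all WT animals, and KO animal 12 lay within the WT range. The difference was log2 -0.25 (SE 0.13, 95% confidence interval -0.54 to 0.05, adjusted p = 0.733). With the macrophage marker mean as a covariate it was log2 -0.045 (SE 0.14), and across the fits without 1 animal it lay between log2 -0.33 and -0.18.

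Fas, the death receptor that recruits Casp8 through Fadd, was read by 1460251_at (Entrez gene 14102, chromosome 19). Its values were 0.58, -0.0075 and 0.15 in WT animals 2, 3 and 4, and 0.0075, -0.30, -0.015 and -0.07 in KO animals 8, 10, 11 and 12. Again 3 KO animals were below all WT animals, and KO animal 8 was above WT animal 3 by little. The difference of log2 -0.34 (SE 0.16, 95% confidence interval -0.70 to 0.03, adjusted p = 0.706) leaned on WT animal 2, without which it was log2 -0.17 (SE 0.14). The ligand Fasl lay at log2 -0.10 (SE 0.15) and 0.01 (SE 0.12) in its 2 probe sets, and the adaptor Fadd at log2 -0.13 (SE 0.13) and 0.02 (SE 0.12).

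Cflar, which dimerises with Casp8 and limits its activation, is the neighbour of Casp8 on chromosome 1 in the gene order. Its 5 probe sets (Entrez gene 12633) did not all point one way. The largest difference was that of 1425686_at, with 0.35, -0.02 and 0.31 in WT animals 2, 3 and 4 and 0.02, -0.36, -0.29 and 0.14 in KO animals 8, 10, 11 and 12. These values overlap, and the difference was log2 -0.34 (SE 0.16, adjusted p = 0.705). The probe set 1425687_at separated the groups, with 0.12, 0.04 and 0.09 in WT and -0.18, -0.10, -0.01 and 0.01 in KO. Its difference was smaller, log2 -0.15 (SE 0.10, adjusted p = 0.786), and the gap between WT animal 3 and KO animal 12 was narrow beside the spread within KO (SD 0.09).

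The probe set of Cflar at the highest recovered level, 1424996_at, had 0.08, 0.06 and 0.07 in WT and 0.11, -0.19, -0.29 and -0.06 in KO animals 8, 10, 11 and 12. The WT animals were nearly equal (SD 0.007) and the KO animals spread on both sides of them (SD 0.17), for a difference of log2 -0.18 (SE 0.12, adjusted p = 0.790). Against the others, 1449317_at was higher by group mean in KO. It read 0.02, -0.53 and 0.13 in WT and 0.18, 0.02, -0.28 and -0.02 in KO, for a difference of log2 0.10 (SE 0.18, adjusted p = 0.927), which became log2 -0.10 without WT animal 3. The remaining probe set, 1453482_at, lay at log2 -0.13 (SE 0.16) and turned to log2 0.04 without WT animal 2. The mean over the 5 probe sets, in a fit across 18193 genes, differed by log2 -0.14 (SE 0.11, adjusted p = 0.775).

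**Figure D3:**
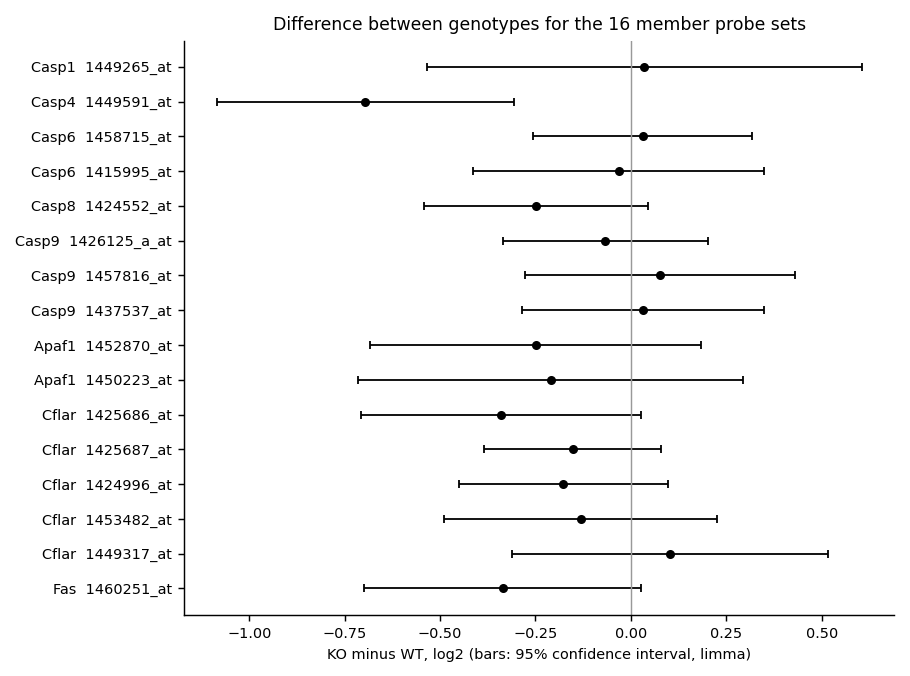
Difference between KO and WT (horizontal axis, log2) for the 16 probe sets, with points for limma's estimate and bars for its 95% confidence interval. Casp4 at log2 -0.70 is the only one whose bar does not cross 0.

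On the mitochondrial side, both Apaf1 probe sets were lower by group mean, with wide overlap. Apaf1 (Entrez gene 11783, chromosome 10) forms the wheel-shaped platform on which Casp9 dimerises. The probe set 1452870_at read 0.19, 0.27 and -0.25 in WT animals 2, 3 and 4, and 0.09, -0.12, -0.59 and -0.09 in KO animals 8, 10, 11 and 12. Each group had 1 animal far below its others, WT animal 4 and KO animal 11. The difference was log2 -0.25 (SE 0.19, adjusted p = 0.811), and that of 1450223_at was log2 -0.21 (SE 0.22, adjusted p = 0.863). Both depended on single animals. The former was log2 -0.11 without KO animal 11 and log2 -0.41 without WT animal 4, and the latter log2 -0.059 without WT animal 3, log2 -0.083 without KO animal 11 and log2 -0.37 without KO animal 8. Both changed sign with the macrophage marker mean as a covariate, to log2 0.13 (SE 0.16) and log2 0.21 (SE 0.20).

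Casp9 (Entrez gene 12371, chromosome 4), the initiator caspase activated on that platform, had differences near 0 in each of its 3 probe sets. They were log2 -0.07 (SE 0.12) for 1426125_a_at, log2 0.08 (SE 0.16) for 1457816_at and log2 0.03 (SE 0.14) for 1437537_at, with adjusted p from 0.926 to 0.973. The probe set with the smallest p, 1426125_a_at, read -0.03, 0.02 and 0.09 in WT animals 2, 3 and 4, and -0.17, -0.02, 0.17 and -0.14 in KO animals 8, 10, 11 and 12. The KO values reached past the WT values on both sides. KO animal 11 was the highest of all 7 animals in 1426125_a_at and in 1457816_at (0.47), and the lowest in 1437537_at (-0.35), so the probe sets of this gene disagreed within that animal. Over the 3 probe sets the gene mean differed by log2 0.01 (SE 0.08, 95% confidence interval -0.18 to 0.21).

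Casp6 (Entrez gene 12368, chromosome 3), the effector caspase, likewise gave values on both sides of 0. The probe set at the higher level, 1415995_at, read 0.14, -0.08 and -0.04 in WT animals 2, 3 and 4, and 0.31, 0.09, -0.37 and -0.13 in KO animals 8, 10, 11 and 12. The KO animals surrounded the WT animals, and the difference was log2 -0.03 (SE 0.17, adjusted p = 0.978). The other, 1458715_at, read 0.03, 0.08 and -0.30 in WT and -0.0019, 0.02, 0.0019 and -0.16 in KO, for a difference of log2 0.03 (SE 0.13, adjusted p = 0.971). The gene mean differed by log2 -0.00073 (SE 0.12, 95% confidence interval -0.28 to 0.27).

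Single animals took the extremes unevenly. KO animal 11 was the lowest of the 7 in 7 of the 16 probe sets, among them Casp1, Casp8 and both of Apaf1, while it is the lowest in 19.8% of all probe sets. It had the lowest macrophage marker mean (-0.58) and the lowest weight (0.43) when limma estimated how much each array should count, where the highest was 2.89. WT animal 2 was the highest in 7 of the 16, among them Casp1, Casp4, Casp8 and Fas, and is the highest in 11.8% of all. It had the highest neutrophil mean (0.80). The probe sets of a gene share their animals, and the part of these animals in the differences is given by the fits without them.

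**Figure D4:**
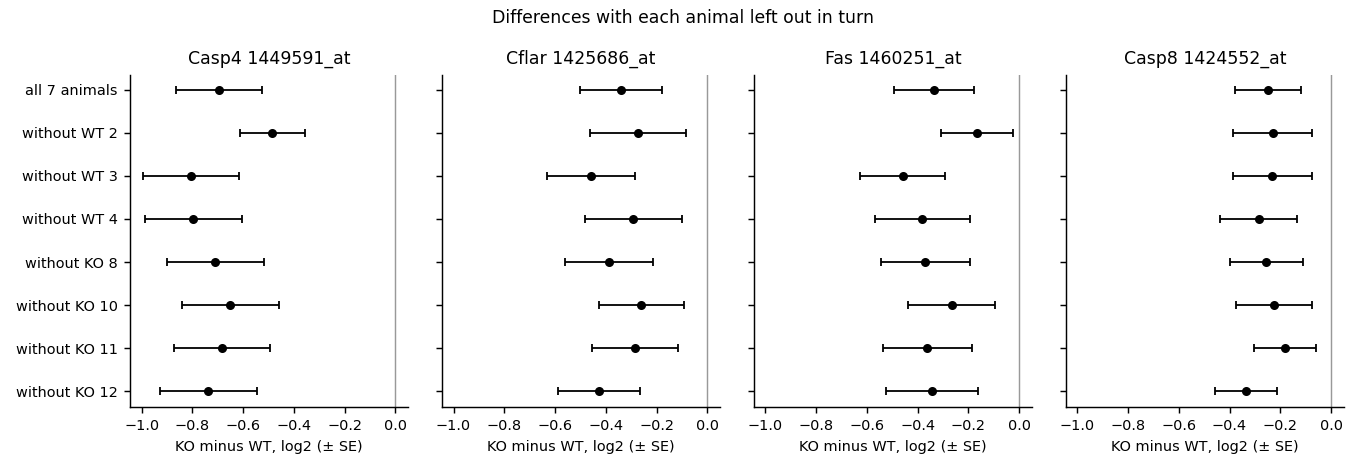
Difference between KO and WT (log2, ± SE) for Casp4, the Cflar probe set 1425686_at, Fas and Casp8, with all 7 animals and with each left out in turn. Casp4 ranges from log2 -0.81 to -0.49 and Fas moves from log2 -0.34 to -0.17 without WT animal 2.

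The wider pathway was covered by 6 lists, of which 62 genes beyond the 8 were measured, by 131 probe sets. None (0) of the 131 passed by limma's adjusted p, 16 were lower and 4 higher with an unadjusted p under 0.05, against 5.22% and 2.18% of all probe sets. Their median difference was log2 -0.08, and 48 of the 62 genes were lower by gene mean, against 48.4% of all 18193 genes. The lists were chosen with earlier results of these data known, and several probe sets of a gene are counted separately. Neither these counts nor those of a single list are thus a test of the pathway. Genes named from each list are those with the smallest p, apart from Pycard and P2rx7, named for their role and count.

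The other caspases split in direction. Casp2, an initiator linked to DNA damage and centrosome number, was higher in every KO animal than in every WT animal: -0.06, -0.17 and -0.28 in WT, and 0.34, 0.31, 0.02 and 0.08 in KO. The difference was log2 0.36 (SE 0.12, adjusted p = 0.561), opposite in sign to Casp4 and Casp12. Casp14, the caspase of epidermal cornification, ranged from -1.94 in KO animal 8 to 0.89 in KO animal 12 in 1418748_at. Its difference was log2 -0.22 (SE 0.62, adjusted p = 0.958), that of its other probe set was log2 0.03 (SE 0.23), and KO animal 8 also had the lowest keratinocyte marker mean (-0.56).

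In the inflammasome and pyroptosis list, 7 of 25 probe sets beyond Casp1 and Casp4 were lower and 1 (P2rx7, named after its value was seen) was higher with an unadjusted p under 0.05, against 5.22% and 2.18% of all probe sets, and 0 passed. Mefv, which encodes the sensor pyrin of neutrophils and monocytes, read 0.78, 0.53 and 0.16 in WT and -0.21, -0.21, -0.47 and -0.16 in KO, without overlap. Its difference was log2 -0.75 (SE 0.16, adjusted p = 0.291). Nlrp3, a sensor that recruits Casp1, was at log2 -0.83 (SE 0.28, adjusted p = 0.555), and the groups were separated only by the gap between WT animal 4 at 0.0017 and KO animal 10 at 0.00026. Gsdmd, the pore protein cut by Casp1 and Casp4, was at log2 -0.56 (SE 0.18, adjusted p = 0.536), with WT animal 4 at -0.04 and KO animal 12 at 0.04. The adaptor Pycard stayed between log2 -0.25 and -0.02 over its 3 probe sets.

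**Figure D5:**
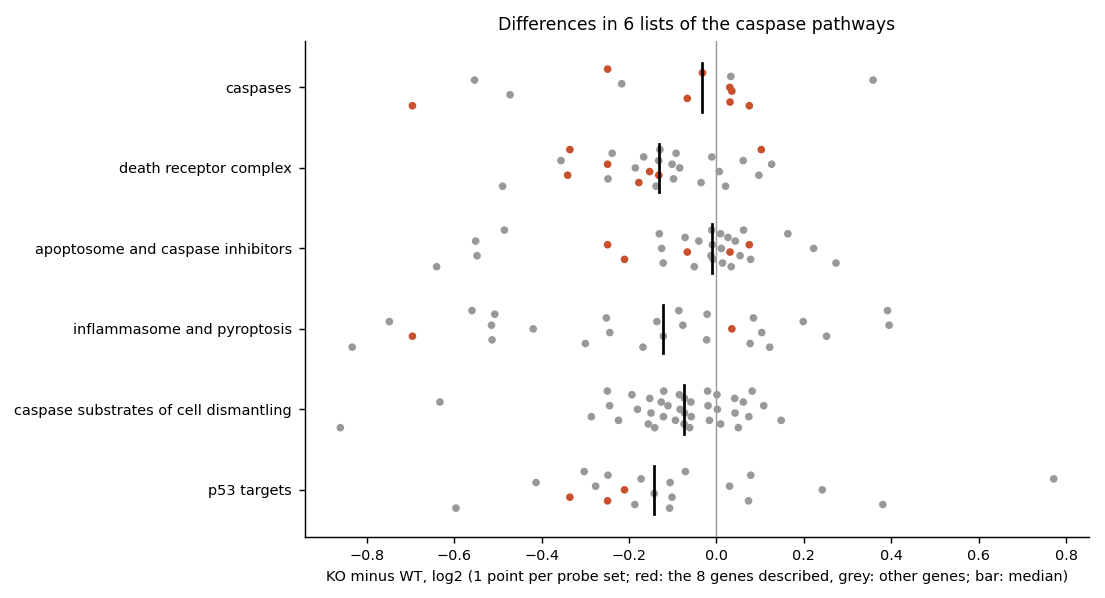
Differences between KO and WT (log2) of all measured probe sets in 6 pathway lists, 1 point per probe set, with the 8 genes in red, other genes in grey and a bar at the list median. List medians lie between log2 -0.14 and -0.01, and the widest spread is in the inflammasome and p53 lists.

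Among caspase inhibitors, Birc3 (cIAP2), a ubiquitin ligase of the TNF receptor complex and an NF-kB target, had the smallest p of the wider lists. The stretch before its start, of the same length as those shown, held no match to the NF-kB consensus or the other motifs searched. Like Casp4 and Casp12, Birc3 lies on chromosome 9, though not next to them. It read 0.48, 0.24 and 0.48 in WT and -0.06, -0.49, -0.18 and -0.25 in KO (1421392_a_at), for a difference of log2 -0.64 (SE 0.13, adjusted p = 0.278). Its other probe set, 1425223_at, was at log2 -0.55 (SE 0.12, adjusted p = 0.320), and the groups did not overlap in either. Htra2, a mitochondrial protease that binds such inhibitors, was at log2 -0.55 (SE 0.15) and -0.49 (SE 0.14), again without overlap, with adjusted p of 0.441 and 0.475. Xiap, the direct inhibitor of Casp9, lay between log2 -0.13 and 0.16 over 7 probe sets.

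In the death receptor list, Ripk3, the kinase of necroptosis that Casp8 and Cflar hold in check, was below WT in every KO animal: 0.11, 0.20 and 0.26 in WT, and -0.28, -0.43, -0.38 and -0.11 in KO. The difference was log2 -0.49 (SE 0.12, adjusted p = 0.360). The receptors Tnfrsf10b (log2 -0.25, SE 0.12, in 1422344_s_at) and Tnfrsf1a (log2 -0.24, SE 0.13) did not pass either (adjusted p 0.717 and 0.741). The other Tnfrsf10b probe set was at log2 -0.10 (SE 0.12).

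Of the substrates and p53 targets, Lmnb1, a lamin that effector caspases cut, had the largest negative difference, log2 -0.86 (SE 0.22, adjusted p = 0.408) and log2 -0.63 (SE 0.27) in its 2 probe sets. The former passed in 1 alternative, with the hair follicle mean as a covariate (log2 -1.13, adjusted p = 0.0389). Parp1, a repair enzyme cut during apoptosis, lay between log2 -0.29 and -0.11, and Dffb, the nuclease that cuts DNA between nucleosomes, at log2 -0.22 (SE 0.13) and -0.02 (SE 0.15). Trp53inp1, a p53-induced stress protein, was higher in every KO animal in both probe sets, at log2 0.77 (SE 0.21, adjusted p = 0.445) and log2 0.38 (SE 0.12, adjusted p = 0.533). Ccng1, a cyclin that p53 induces, was at log2 -0.60 (SE 0.27) in 1450016_at, and at log2 -0.41 and -0.30 in its other probe sets. Mdm2, the ligase that degrades p53, was at log2 -0.28 (SE 0.14) in 1427718_a_at. Its other probe sets differed in sign, at log2 -0.17 and 0.08. Fas and Apaf1, which p53 also induces, are thus in a list whose other members differed in sign.

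The genes whose pattern over the 7 arrays was most like that of Casp4 were Tenm3, Itprip and Klra17, with mean absolute distances of 0.049, 0.087 and 0.089 on the log2 scale after each was centred on its own mean. Their differences were log2 -0.64, -0.55 and -0.61, and their adjusted p from 0.351 to 0.579. For the Cflar probe set 1425686_at they were Ankmy2, Agap1 and Klf6, at 0.048, 0.051 and 0.062, with differences of log2 -0.26, -0.36 and -0.27. This likeness describes 7 arrays and was searched over 34945 probe sets with 1 symbol. The nearness of these differences to those of Casp4 and Cflar follows from that choice and is not a separate result.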

How the data were processed

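One table was used, the series' values for 7 arrays. Per the submitters' processing notes the deposited log2 values came from GCRMA. The log base and the value subtracted from each probe set are not stated, and log2 is taken as GCRMA's scale. Chip definition and version are not given in the sources used here. Of 45101 probe sets 64 controls were left out. Symbols came from the platform annotation, in which 34945 tested probe sets carry 1 symbol, 932 several and 9160 none.

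KO and WT were compared with limma 3.58.1 (lmFit, eBayes) in R 4.3.3, unpaired and without covariates, on all 45037 probe sets without a filter. Python 3.11.15, pandas 2.3.3, numpy 2.4.6 and matplotlib 3.10.9 were used otherwise. Levels were read from the rounding grid of stored values of at least 0.001 in size. Both steps were tested on simulated data. The number of arrays limits the precision.

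The members and lists were chosen with earlier results of these data known. Named genes were each member's probe set of smallest p or opposing sign, up to 3 genes of smallest p per list, and the 3 most alike of the 2 largest member differences. Fasl, Fadd, Pycard, P2rx7, Gria4 and Pdgfd were named outside that rule, for their role, position or count. Alternatives were quantile normalization, array medians, eBayes with trend or robust, array weights, other thresholds, fewer probe sets, gene means, fewer animals and list means as covariates. A recovered level of at least 4 was added after seeing the data.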

Additional observations from a re-analysis of the deposited data

Results flagged for a closer look

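In the KO group of 4 animals, 2 of the 16 probe sets had 1 animal far from the others, by the gap to the nearest animal as a share of the group's range. For Casp9 1437537_at this share was 0.959, with KO animal 11 at -0.35 and the other KO animals between 0.07 and 0.09. For Casp6 1458715_at it was 0.867, with KO animal 12 at -0.16 and the others between -0.0019 and 0.02. Both are above Dixon's 95% critical value for 4 samples, which chance exceeds in about 1 in 20 groups.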

How the results depend on the processing

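No paired analysis was possible because the WT and KO animals share no number. Of the 16 probe sets, 0 passed under every alternative except the unadjusted p under 0.05, where 1 did (Casp4). Of the wider pathway 0 passed, except 1 (Lmnb1) with the hair follicle mean as a covariate and 20 with the unadjusted p. Over all probe sets 20 passed, against 13 with quantile normalization, 68 with array weights and 6 without KO animals 8 and 10. Without the _x_at, _s_at and _a_at probe sets 11 passed, a setting that also drops the Mfge8 probe set 1420911_a_at. The count was 37 and 5 with the hair follicle and macrophage means as covariates. It was 40 at a threshold of 0.10, 3329 unadjusted and 7 by gene mean. Leaving out 1 animal gave 5 (without WT animal 3) to 19 (without WT animal 4). The median difference over the 16 kept its sign throughout, from log2 -0.23 to -0.05.

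The following probe sets changed sign, and the cause was not tested. Without 1 animal, Casp1 lay between log2 -0.14 and 0.24, Casp6 1458715_at between -0.089 and 0.10, Casp6 1415995_at between -0.14 and 0.084, Casp9 1457816_at between -0.039 and 0.16, Casp9 1437537_at between -0.025 and 0.14, Cflar 1453482_at between -0.23 and 0.036 and Cflar 1449317_at between -0.10 and 0.23. Without KO animals 8 and 10, Casp1 was at -0.23, Casp6 1458715_at at -0.014, Casp9 1437537_at at -0.071 and Cflar 1449317_at at -0.023. With the hair follicle mean as a covariate the first 3 of these were at -0.23, -0.022 and -0.079. With the macrophage mean, Casp6 1415995_at was at 0.14, Casp9 1457816_at at -0.047, Apaf1 1452870_at at 0.13 and Apaf1 1450223_at at 0.21. With array weights Casp6 1415995_at was at 0.012 and Casp9 1457816_at at -0.016. Gene means give no value for single probe sets of Casp6, Casp9, Apaf1 and Cflar, and Casp9 1426125_a_at has none without _a probe sets.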
